A study of Mus musculus with 15 samples.

Results

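The 6 MHC class II genes described here were H2-Aa, H2-Ab1, H2-Eb1, H2-DMa, Cd74 and Ciita, read in livers of C57BL/6 mice under 3 feeding regimens. They were chosen by gene name, and all 6 were found among the 35275 genes of the count table and all 6 passed the low-count filter that left 13837 genes for testing. Each regimen gave 5 libraries. EOD mice were fasted for 24 h every other day, IF16 mice were fasted for 16 h, and AL mice were fed ad libitum. All 3 groups were of the same strain, started at 3 months of age, stayed on their regimen for 3 months and were 6 months old at the end, and the left lateral liver lobe was taken. The question of the study was how gene expression in the liver differs between the regimens. Whether each library came from its own mouse is not stated in the labels, so p-values measure the spread between libraries, which may be technical.

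MHC class II molecules are heterodimers of an alpha and a beta chain that show peptides from endocytosed proteins to CD4+ T cells. The invariant chain Cd74 blocks the peptide groove and guides the dimer to endosomes, cathepsins trim the invariant chain, and H2-DM exchanges its remnant for a peptide. Ciita, the class II transactivator, is recruited to the X and Y boxes of class II promoters by the RFX, CREB and NF-Y factors, and interferon gamma induces it, with Irf1 among the factors involved. In liver, dendritic cells, B cells and Kupffer cells carry class II molecules, and hepatocytes make little of them at rest.

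The libraries held 28129883 to 38147534 counts each. The 8 hepatocyte markers had summed levels of 89160 to 119700 CPM (counts over TMM-scaled library size) in EOD, 104600 to 135200 CPM in IF16 and 85120 to 105200 CPM in AL, so the labelled tissue and its markers go together. AL replicates 4 and 5 stood apart: their summed neutrophil markers were 37.43 and 34.87 CPM, against 2.054 to 6.066 CPM in EOD, 2.992 to 4.206 CPM in IF16 and 2.748 to 4.04 CPM in AL replicates 1 to 3. Results are therefore also given without these 2 libraries. In bulk tissue, fewer cells of a type and less RNA per cell cannot be told apart.

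The promoters of H2-Aa and H2-Eb1 are shown because both hold letters like the X and Y boxes, the elements through which Ciita is known to act on class II genes. The sequences are those of RefSeq on GRCm38.p6, 240 bases up to shortly before the start of transcription, from chr17:34287834-34288073 on the minus strand for H2-Aa and chr17:34305617-34305856 on the plus strand for H2-Eb1. Capitals mark CTNGCAAC, an X-box-like match, and the GATTGG that follows it, the Y box core that NF-Y binds. GATTGG is the reverse complement of CCAATC, so each GATTGG holds a CCAAT match on the other strand. A CCAATC near the end of the H2-Eb1 sequence, which is GATTGG on the other strand, was left in small letters.
H2-Aa: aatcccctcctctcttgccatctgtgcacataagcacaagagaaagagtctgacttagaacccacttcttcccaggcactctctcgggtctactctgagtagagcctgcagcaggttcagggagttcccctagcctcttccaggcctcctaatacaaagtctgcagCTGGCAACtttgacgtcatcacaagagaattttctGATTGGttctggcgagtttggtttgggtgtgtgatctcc
H2-Eb1: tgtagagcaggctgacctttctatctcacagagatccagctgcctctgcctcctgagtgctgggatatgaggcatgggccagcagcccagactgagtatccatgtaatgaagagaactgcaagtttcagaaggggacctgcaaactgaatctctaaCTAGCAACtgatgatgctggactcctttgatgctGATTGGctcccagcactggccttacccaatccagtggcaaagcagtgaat
The X-box-like letters stood at bases 167 to 174 and the Y box at bases 202 to 207 in H2-Aa, and at bases 157 to 164 and 191 to 196 in H2-Eb1, leaving 27 and 26 bases between them. CTNGCAAC and the pair were chosen after the sequences had been seen. Searched on both strands in windows of 300 bases around the start, the motif GATTGG was in 16.1% of 32851 windows and CTNGCAAC in 3.42%. CTNGCAAC followed by GATTGG within 40 bases was in 0.0609% of windows, which is 20 windows of 18 genes, and H2-Ob, the beta chain of H2-DO, was another of them, with 24 bases between the boxes. The X box core CCNNGNNAC, which was searched first, was in 47.4% of windows and CCAAT in 37.4%. CCNNGNNAC was not in the H2-Eb1 window, and in the H2-Aa window it did not lie at the capitals. The promoter table matched 3 of the 6 genes, H2-Aa, H2-Eb1 and H2-DMa. H2-DMa has 2 windows there, 9664 and 12350 bases from its deposited start, and neither holds CTNGCAAC. Of the other class II genes in the table, H2-DMb1, H2-DMb2 and H2-Oa have no CTNGCAAC, and H2-Eb2 has CTNGCAAC and GATTGG but not the pair.

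None of the 6 genes passed the test between any pair of regimens. In EOD against AL, 0 of 6 passed at an adjusted p under 0.05 in edgeR's quasi-likelihood test, where 35.2% of all tested genes did. In IF16 against AL, 0 of 6 passed, where 3.5% of tested genes did, and in EOD against IF16, 0 of 6 passed, where 16.1% did. At an unadjusted p under 0.05 the count was also 0 of 6 in each comparison, where 45.1% of tested genes reached it in EOD against AL, 18.6% in IF16 against AL and 31.5% in EOD against IF16. DESeq2 and limma called 0 as well. The libraries of the 2 groups overlapped for 6 of 6 genes in each comparison, while they did not overlap for 18.6% of tested genes in EOD against AL, 5.78% in IF16 against AL and 10.9% in EOD against IF16. The 3 comparisons share libraries, so they are not independent.

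H2-Aa and H2-Ab1 encode the alpha and beta chains of the I-A molecule. The gene H2-Aa lies on chromosome 17 at 34282744 to 34287827 of the minus strand (mm10, deposited coordinates, gene ID ENSMUSG00000036594). It had 16.72, 20.33, 23.67, 46.21 and 36.58 CPM in EOD replicates 1 to 5, 47.34, 32.58, 42.24, 21.02 and 31.4 CPM in IF16 replicates 1 to 5, and 40.82, 36.47, 28.01, 22.53 and 27.28 CPM in AL replicates 1 to 5. The 3 groups overlapped, with the lowest value in an EOD library and the highest in an IF16 library. The log2 fold change of H2-Aa was -0.11 in EOD against AL (SE 0.27, 95% interval -0.70 to 0.47, adjusted p = 0.778, edgeR) and 0.17 in IF16 against AL (SE 0.27, 95% interval -0.41 to 0.75, adjusted p = 0.798, edgeR).

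H2-Ab1 lies on chromosome 17 at 34263209 to 34269418 of the plus strand (ENSMUSG00000073421). It had 23.06, 28.27, 35.05, 57.84 and 42.88 CPM in EOD replicates 1 to 5, 53.62, 39.87, 46.81, 24.49 and 40.64 CPM in IF16 replicates 1 to 5, and 52.29, 42.93, 31.56, 24.3 and 35.55 CPM in AL replicates 1 to 5. The means lay close together, at 37.4 ± 13.6 CPM in EOD, 41.1 ± 10.8 CPM in IF16 and 37.3 ± 10.7 CPM in AL (SD, n = 5 each), and the groups overlapped. Its log2 fold change was 0.0022 in EOD against AL (95% interval -0.54 to 0.55, adjusted p = 0.996, edgeR) and 0.14 in IF16 against AL (95% interval -0.41 to 0.68, adjusted p = 0.832, edgeR).

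H2-Eb1 encodes the beta chain of the I-E molecule and lies on chromosome 17 at 34305877 to 34316199 of the plus strand (ENSMUSG00000060586). It had 14.92, 19.26, 21.04, 43.39 and 28.99 CPM in EOD replicates 1 to 5, 42.09, 29.16, 37.41, 21.5 and 31.16 CPM in IF16 replicates 1 to 5, and 39.33, 37.23, 28.63, 20.32 and 27.55 CPM in AL replicates 1 to 5. EOD replicates 1 and 2 fell outside the range of the AL libraries on the low side, and EOD replicate 4 on the high side. Its log2 fold change was -0.26 in EOD against AL (SE 0.26, 95% interval -0.83 to 0.30, adjusted p = 0.464, edgeR), 0.07 in IF16 against AL (95% interval -0.48 to 0.63, adjusted p = 0.917, edgeR) and -0.34 in EOD against IF16 (95% interval -0.90 to 0.22, adjusted p = 0.411, edgeR). C57BL/6 mice are known to lack a working E alpha chain, and the E alpha pseudogene H2-Ea-ps had 0 counts in 15 of 15 libraries, which allows at most 0.078 to 0.107 CPM in a library (3 counts, counting error only).

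Cd74 was the most abundant of the 6 genes. The gene lies on chromosome 18 at 60803848 to 60812646 of the plus strand (ENSMUSG00000024610). It had 39.75, 47.85, 53.92, 100.2 and 90.46 CPM in EOD replicates 1 to 5, 127.7, 68.36, 88.69, 48.82 and 70.1 CPM in IF16 replicates 1 to 5, and 94.28, 84.88, 65.31, 54.61 and 68.53 CPM in AL replicates 1 to 5. IF16 replicate 1 was the highest library and EOD replicate 1 the lowest, and the groups overlapped. Its log2 fold change was -0.15 in EOD against AL (SE 0.28, 95% interval -0.74 to 0.45, adjusted p = 0.714, edgeR) and 0.13 in IF16 against AL (95% interval -0.46 to 0.73, adjusted p = 0.850, edgeR).

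H2-DMa, the alpha chain of the peptide exchanger H2-DM, lies on chromosome 17 at 34135182 to 34139101 of the plus strand (ENSMUSG00000037649). It had 2.106, 3.141, 2.737, 5.933 and 5.046 CPM in EOD replicates 1 to 5, 5.137, 3.42, 3.517, 3.015 and 3.159 CPM in IF16 replicates 1 to 5, and 4.322, 4.731, 3.46, 2.799 and 3.41 CPM in AL replicates 1 to 5. EOD replicates 4 and 5 and IF16 replicate 1 were the only libraries above 5 CPM. The fold of EOD over AL was 1.01 (95% interval 0.701 to 1.45, adjusted p = 0.973, edgeR), and that of IF16 over AL was 0.973 (95% interval 0.676 to 1.401, adjusted p = 0.957, edgeR).

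Ciita lies on chromosome 16 at 10488178 to 10527564 of the plus strand (ENSMUSG00000022504) and was read from 6 to 40 counts per library. It had 0.468, 0.5785, 0.6754, 1.326 and 1.222 CPM in EOD replicates 1 to 5, 1.202, 0.4274, 0.4602, 0.7203 and 0.756 CPM in IF16 replicates 1 to 5, and 1.088, 0.6216, 0.7507, 0.2074 and 0.4726 CPM in AL replicates 1 to 5. All 3 groups held libraries near or above 1 CPM and libraries under 0.5 CPM. The log2 fold change was 0.42 in EOD against AL (SE 0.40, 95% interval -0.43 to 1.26, adjusted p = 0.441, edgeR) and 0.17 in IF16 against AL (SE 0.40, 95% interval -0.68 to 1.02, adjusted p = 0.869, edgeR). A 2-fold higher level of Ciita lay inside both intervals.

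**Figure D1:**
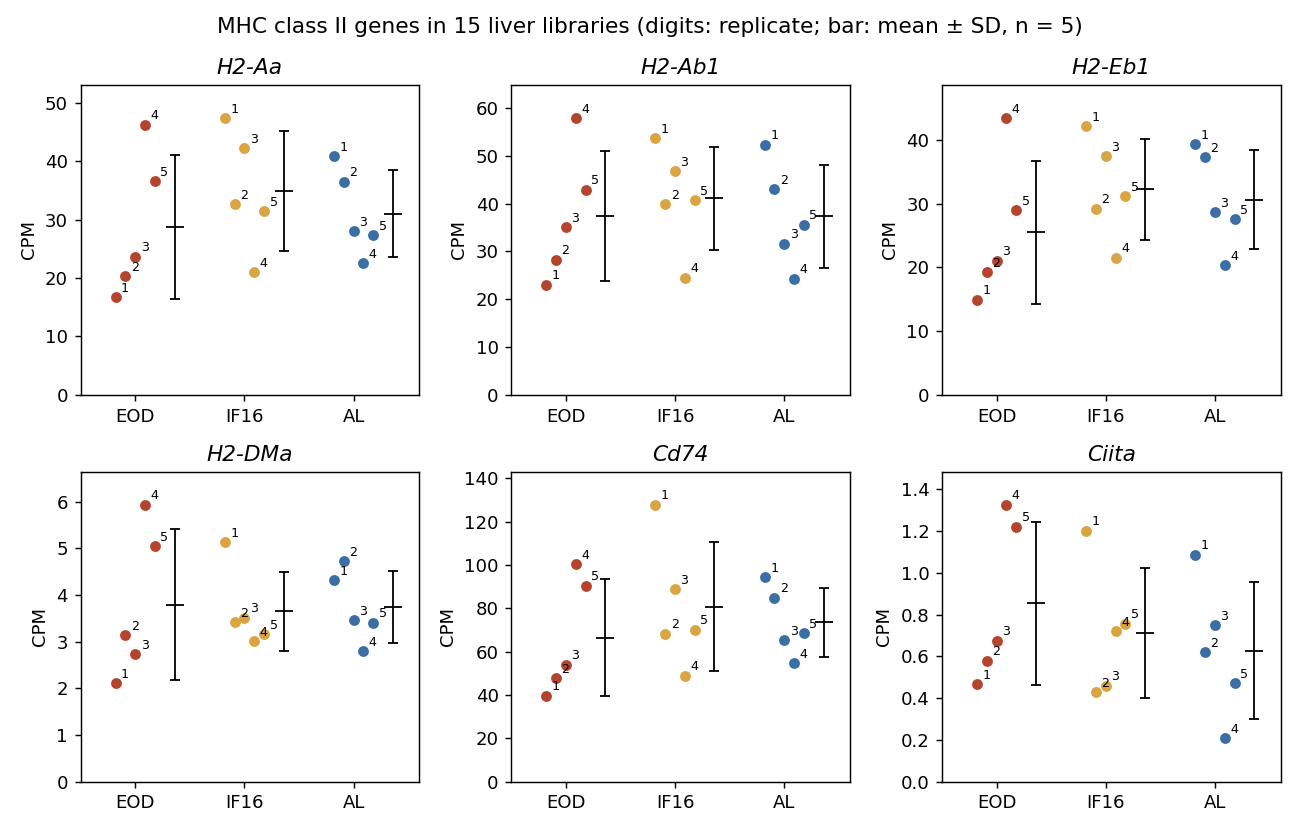
CPM (TMM-scaled counts, linear axis from 0) of the 6 class II genes in each library, with EOD, IF16 and AL from left to right. Points are libraries and lines are group means with SD (n = 5 each), and the 3 groups overlap for every gene, Cd74 reaching 127.7 CPM and Ciita staying at or under 1.326 CPM.

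For the 5 genes other than Ciita, the 95% intervals of the fold ran from 0.564 to 1.46 in EOD over AL, from 0.676 to 1.69 in IF16 over AL and from 0.536 to 1.49 in EOD over IF16. The median log2 fold change of the 6 genes was -0.06 in EOD against AL, 0.14 in IF16 against AL and -0.21 in EOD against IF16, while the medians of all tested genes were -0.01, -0.0005 and -0.003. With AL replicates 4 and 5 left out, the values of the 6 genes in EOD against AL ran on the log2 scale from -0.43 for H2-Eb1 to 0.07 for Ciita, and 0 of 6 passed. Leaving out EOD replicate 4 gave the lowest adjusted p of any setting, 0.0791 for H2-Eb1 in EOD against AL, with a log2 fold change of -0.54 (unadjusted p = 0.029, edgeR). Without the same library, H2-Eb1 in EOD against IF16 had a log2 fold change of -0.60 (adjusted p = 0.0831, unadjusted p = 0.0164, edgeR), and these were the 2 values of the members at an unadjusted p under 0.05 among all settings.

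**Figure D2:**
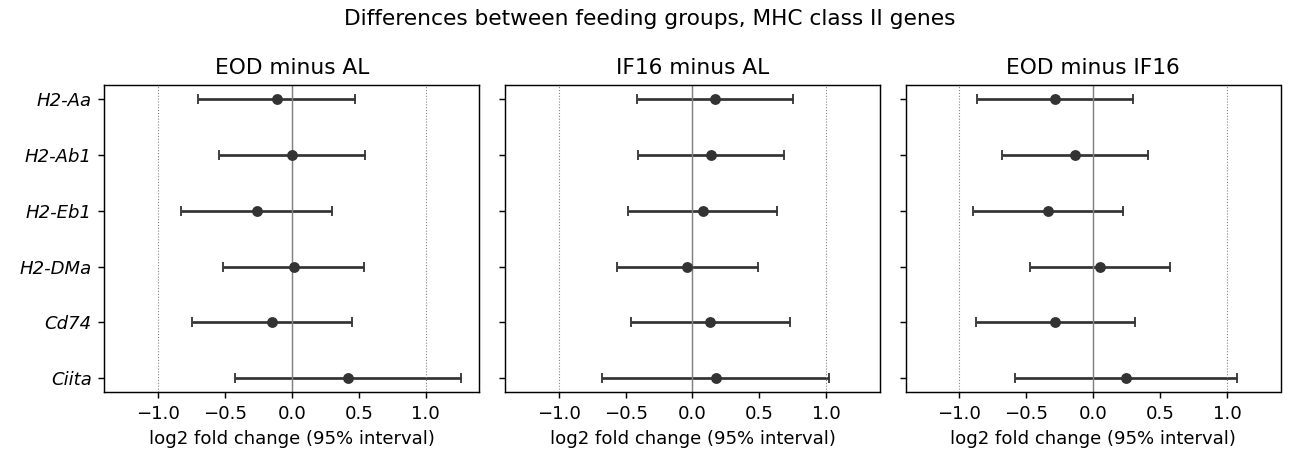
Log2 fold change of each class II gene in EOD minus AL, IF16 minus AL and EOD minus IF16, with 95% intervals from the edgeR fit (15 libraries). Every interval spans 0, and for the 5 genes other than Ciita every interval stays within 1 log2 unit of 0.

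Per unit of gene length, the order of levels was Cd74, H2-Ab1, H2-Aa, H2-Eb1, H2-DMa and Ciita in 15 of 15 libraries. Cd74 had 47.2 ± 19.8 FPKM (the deposited level per gene length and library total) in EOD, 57.6 ± 23.4 FPKM in IF16 and 52.6 ± 12.98 FPKM in AL (SD, n = 5 each). The 3 chains followed: in EOD, H2-Ab1 had 30.8 ± 11.04 FPKM, H2-Aa 25.3 ± 10.9 FPKM and H2-Eb1 21.5 ± 9.24 FPKM. In each group, the means of H2-Ab1 and H2-Aa, and those of H2-Aa and H2-Eb1, differed by less than the SD of either gene, while in EOD the means of H2-Ab1 and H2-Eb1 differed by more than the SD of H2-Eb1. H2-DMa had 2.44 ± 1.07 FPKM in EOD, 2.36 ± 0.651 FPKM in IF16 and 2.43 ± 0.569 FPKM in AL, far below the chains that it serves. Ciita was lowest, at 0.163 ± 0.0772 FPKM in EOD, 0.137 ± 0.0658 FPKM in IF16 and 0.121 ± 0.066 FPKM in AL.

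Ratios between the chains varied less between libraries than the levels. Cd74 had 1.32 to 2.05 times the FPKM of H2-Ab1, and H2-Aa had 0.723 to 0.992 times that of H2-Ab1. The ratio of H2-Eb1 to H2-Ab1 was 0.662, 0.697, 0.614, 0.767 and 0.692 in EOD replicates 1 to 5, 0.803, 0.748, 0.817, 0.898 and 0.784 in IF16 replicates 1 to 5, and 0.769, 0.887, 0.928, 0.855 and 0.793 in AL replicates 1 to 5. All EOD libraries lay under all AL libraries, while EOD and IF16 overlapped. The log2 ratio differed by -0.30 between EOD and AL (two-sided exact permutation test, p = 0.00794, the smallest that 5 libraries against 5 allow) and by -0.24 between EOD and IF16 (exact permutation, p = 0.0159). These ratios were chosen after the levels had been seen, and neither difference passed after adjustment over the 12 ratio tests made (exact permutation p after Benjamini-Hochberg adjustment, 0.0953 and 0.0954).

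The libraries within a group differed widely, and the 6 genes differed together. The within-group SD of log2 CPM was 0.43 for H2-DMa, 0.46 for H2-Ab1, 0.46 for H2-Eb1, 0.48 for H2-Aa, 0.48 for Cd74 and 0.66 for Ciita, against a median of 0.27 over all tested genes, and 77.4% to 94.1% of tested genes had a smaller SD. EOD replicates 4 and 5, IF16 replicate 1 and AL replicates 1 and 2 were above their group mean for all 6 genes. EOD replicates 1, 2 and 3 and AL replicates 4 and 5 were below it for all 6.

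After subtraction of group means, the 15 pairs of genes were correlated over the 15 libraries. H2-Aa, H2-Ab1, H2-Eb1 and Cd74 gave Pearson r of 0.942 to 0.981 and Spearman rho of 0.943 to 0.968 in their 6 pairs. The 4 pairs of these genes with H2-DMa gave r of 0.853 to 0.926 and rho of 0.875 to 0.936, and the 5 pairs with Ciita gave r of 0.679 to 0.76 and rho of 0.682 to 0.8. In permutations within groups (100000 resamples), the raw p of Pearson's r ran from 1e-05, the smallest that they can give, to 0.01 over the 15 pairs, and after Benjamini-Hochberg adjustment over 15 pairs the highest p was 0.01, for Pearson and for Spearman alike. For each pair, r was also taken without the 2 libraries farthest from the median of 1 gene of the pair, never Ciita. These libraries could differ from pair to pair. This r was 0.915 to 0.986 among H2-Aa, H2-Ab1, H2-Eb1 and Cd74, and 0.563 to 0.782 for pairs with Ciita. Without AL replicates 4 and 5 the 15 correlations ran from 0.633 to 0.984.

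**Figure D3:**
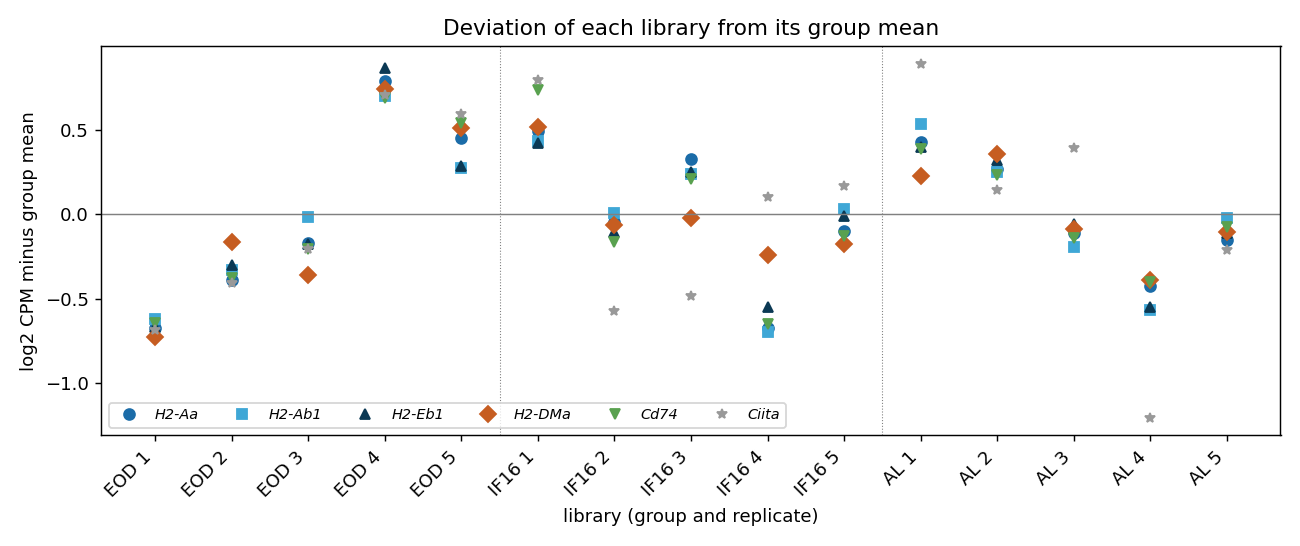
Log2 CPM of each class II gene minus its group mean, by library, with EOD, IF16 and AL from left to right (15 libraries). The 6 genes lie above the group mean together in EOD replicates 4 and 5, IF16 replicate 1 and AL replicates 1 and 2, and below it together in EOD replicates 1, 2 and 3 and AL replicates 4 and 5.

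Genes whose deviations were among the 4 most like the mean of the members of at least 1 CPM, among 11674 genes of at least 1 CPM, were Tmem106a (r = 0.927), Coro1a, an actin regulator of leukocytes (r = 0.925), and H2-DMb1, the beta chain of H2-DM (r = 0.916, n = 15 libraries each). The libraries, their depth and their cell mixture are common to both sides of each correlation. For H2-Aa they included Coro1a, H2-DMb1 and Gbp5 (r = 0.933 to 0.913), for H2-Ab1 Coro1a, Tap1 and H2-DMb1 (r = 0.913 to 0.894), and for H2-Eb1 Coro1a, Casp1 and H2-DMb1 (r = 0.917 to 0.9). For Cd74 the 4 genes were Tmem106a, Tap1, Hcls1 and Gbp5 (r = 0.917 to 0.912). H2-DMa was most like the leukocyte integrin Itgb7 (r = 0.964), then Tmem106a, Engase and Dcaf4 (r = 0.952 to 0.906), and Ciita was most like Wipf1 (r = 0.914), then Gm26999, Ncapd2 and Tep1 (r = 0.876 to 0.858).

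Markers of antigen-presenting and other cells moved with this spread to different degrees. Summed marker levels were set against the mean of the class II genes of at least 1 CPM, which leaves out Ciita. Over the 15 libraries, the deviations of the summed level of 11 Kupffer cell markers correlated with those of this mean at r = 0.584, or 0.769 without AL replicates 4 and 5. The summed Kupffer markers were 330.7, 344.5, 465.1, 601 and 432.7 CPM in EOD replicates 1 to 5, 609.7, 323, 420.4, 274.3 and 329.7 CPM in IF16 replicates 1 to 5, and 341.2, 276.3, 212.2, 378.2 and 435.4 CPM in AL replicates 1 to 5. EOD replicate 4 and IF16 replicate 1, high in class II genes, were also the 2 highest in Kupffer markers. AL replicates 4 and 5 were high for AL in Kupffer markers. In the summed level of the class II genes, Ciita included, AL replicate 4 was the lowest of AL, at 124.8 CPM. AL replicate 5, at 162.8 CPM, lay at the AL median. Over the tested genes of each list, the r was 0.818 for 10 T and NK cell markers, 0.783 for 8 pan-leukocyte markers, 0.318 for 11 B cell markers and 0.16 for 12 dendritic cell markers. Without AL replicates 4 and 5 these were 0.821, 0.88, 0.154 and 0.0629. The r was 0.0522 for 9 markers of monocytes and monocyte-derived macrophages and -0.0496 for 3 of neutrophils, or 0.252 and 0.284 without those libraries. For the others it was 0.601 for stellate cells, 0.567 for sinusoidal endothelium, 0.299 for hepatocytes, -0.363 for cholangiocytes and -0.52 for plasma cells, and without those libraries 0.62, 0.609, 0.278, -0.295 and -0.635. Some sums mostly follow 1 gene. In EOD means, Cst3 had 220.1 of 233.3 CPM for dendritic cells and Fn1 673.1 of 729 CPM for monocytes. Sdc1 had 194.7 of 198.5 CPM for plasma cells and Spp1 37.63 of 44.77 CPM for cholangiocytes. Taken marker by marker, the median r was 0.686 for pan-leukocyte, 0.627 for Kupffer, 0.465 for T and NK, 0.415 for B, 0.208 for dendritic and 0.18 for monocyte markers. The part of these cells in the spread was not tested.

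Between regimens, 12 of 16 sinusoidal endothelial markers were higher in EOD than in AL, where 17.6% of all tested genes were higher and 17.6% lower, and 8 of 16 were higher in IF16 than in AL, where 1.4% of tested genes were. Their levels lay apart from AL, with summed levels of 444.7 to 522 CPM in EOD, 417.5 to 502.9 CPM in IF16 and 207.6 to 354.9 CPM in AL, or 305.6 to 354.9 CPM in AL replicates 1 to 3. Among Kupffer markers 1 of 11 was higher in EOD than in AL. Of 12 tested dendritic cell markers 1 was lower (summed levels 197.9 to 267.2 CPM in EOD, 197.5 to 253.9 CPM in IF16 and 185.5 to 221.5 CPM in AL), and of 11 tested B cell markers 2 were lower (14.61 to 24.15 CPM in EOD, 18.51 to 31.67 CPM in IF16 and 14.31 to 58.26 CPM in AL). The B cell sums were 14.31 and 18.4 CPM in AL replicates 4 and 5 and 39.96 to 58.26 CPM in AL replicates 1 to 3, which lay above every EOD and IF16 library. The Kupffer, dendritic cell and B cell counts were no larger or little larger a share than that of all tested genes. The defining markers Clec9a of dendritic cells, Cd79a of B cells and Clec4f of Kupffer cells were detected at mean levels of 2.38, 1.37 and 86.1 CPM in EOD and 2.79, 1.65 and 64.96 CPM in AL. Of the other lists in EOD against AL, 5 of 10 stellate cell markers were higher and 1 lower. Summed stellate levels were 225.7 and 226.5 CPM in AL replicates 4 and 5 and 336.9 to 375.7 CPM in AL replicates 1 to 3. In EOD they were 353.7 to 490.7 CPM. Lower markers were 2 of 10 for T and NK cells, 2 of 4 for plasma cells and 3 of 3 tested for neutrophils. The neutrophil markers were high in AL replicates 4 and 5, as given above. The 2 plasma cell markers were Mzb1, with a mean of 0.221 CPM in EOD, and Derl3, with a mean of 4.892 and a median of 1.501 CPM in AL. Of 6 cholangiocyte markers 1 was higher. Among 8 pan-leukocyte markers 1 was higher and 1 lower, as among 8 hepatocyte markers, and 0 of 9 monocyte markers passed (1 at an unadjusted p under 0.05, edgeR). Their part in the class II levels was not tested.

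The other chains of the class II locus gave no call either, with 0 of 3 tested genes past the threshold in each comparison (0 at an unadjusted p under 0.05, edgeR). H2-DMb1 had 3.38 ± 1.31 CPM in EOD, 3.82 ± 0.794 CPM in IF16 and 3.15 ± 0.692 CPM in AL, and H2-DMb2 had 0.638 ± 0.194 CPM in EOD, 0.966 ± 0.223 CPM in IF16 and 0.692 ± 0.229 CPM in AL (SD, n = 5 each). Reads of these near-identical beta chains could have been split between them, so each value is uncertain. H2-Ob had 0.892 ± 0.341 CPM in EOD, 1.18 ± 0.31 CPM in IF16 and 1.08 ± 0.384 CPM in AL. H2-Eb2, at 0 to 11 counts, and H2-Oa, at 0 to 7 counts, were too low to test.

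Some genes that act before or after class II transcription changed in EOD. Of 33 tested genes of the wider pathway, 5 were higher and 5 lower in EOD than in AL, 0 passed in IF16 against AL (4 at an unadjusted p under 0.05, edgeR, and 2 in DESeq2), and 2 were higher and 1 lower in EOD than in IF16. Without AL replicate 3 or EOD replicate 5, 1 passed in IF16 against AL. The 10 of 33 called in EOD against AL are no larger a share than the 35.2% of all tested genes. The median log2 fold change of the 33 was 0.10 in EOD against AL, beside -0.01 over all tested genes.

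Of 15 tested genes of peptide loading and trafficking, 4 were higher and 2 lower in EOD than in AL. Of all tested genes, 17.6% were higher and 17.6% lower. Among the proteases in this list, Ctsh, Ctsl and Lgmn rose in EOD against AL. The cathepsin genes Ctsb, Ctsd and Ctsz did not pass. Their log2 fold changes were -0.08, 0.19 and 0.08 (adjusted p = 0.526, 0.189 and 0.635, edgeR). Ctss, cathepsin S, the main protease of the invariant chain in antigen-presenting cells, had a log2 fold change of 0.49 and did not pass (adjusted p = 0.261, edgeR). Ctsh, cathepsin H, had 404.9 ± 91.2 CPM in EOD, 249.4 ± 27.8 CPM in IF16 and 180.3 ± 31.5 CPM in AL (SD, n = 5 each), 2.25-fold higher in EOD than in AL (log2 fold change 1.17, SE 0.16, adjusted p = 3.98e-05, edgeR). Every EOD library, from 271.7 to 527.9 CPM, lay above every AL library, from 127.2 to 206.2 CPM. Ctsl, cathepsin L, which trims the invariant chain in thymic epithelium, had 621.1 to 707.3 CPM in EOD, 421.3 to 490.4 CPM in IF16 and 314.3 to 513.2 CPM in AL (log2 fold change 0.65 in EOD against AL, SE 0.12, adjusted p = 0.000614, edgeR). Lgmn, the asparagine endopeptidase legumain, had 35.67 to 57.54 CPM in EOD and 22.52 to 38.05 CPM in AL, and its log2 fold change was 0.59 (SE 0.20, adjusted p = 0.0265, edgeR). These proteases also work in lysosomes outside antigen presentation, and whole liver does not say which cells hold the RNA.

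In the same list, Tlr4, the endotoxin receptor, was 1.62-fold higher in EOD than in AL (0.988 to 1.671 CPM in EOD and 0.5525 to 1.08 CPM in AL, adjusted p = 0.0263, edgeR). Ifi30, the lysosomal thiol reductase that unfolds antigens, fell to 12.2 ± 2.91 CPM in EOD, against 17.2 ± 1.83 CPM in AL (log2 fold change -0.49, adjusted p = 0.0214, edgeR). Cd82, a tetraspanin of class II compartments, had 63.57 to 78.79 CPM in EOD, 92.88 to 105.1 CPM in IF16 and 94.53 to 106.8 CPM in AL (log2 fold change -0.51 in EOD against AL, SE 0.087, adjusted p = 0.000326, edgeR). All EOD libraries lay under all IF16 and AL libraries for Cd82. The calls of Lgmn and Tlr4 ended without AL replicate 2 or 3 or EOD replicate 3 or 4 (adjusted p = 0.0564 to 0.0728), and that of Ifi30 ended with AL replicates 4 and 5 left out (adjusted p = 0.137, log2 fold change -0.36), without AL replicate 5 alone (0.0561) or without EOD replicate 1 or 2 (0.0595 and 0.0634).

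Among 15 tested genes of class II transcription and interferon signalling, 1 was higher and 3 were lower in EOD than in AL. As a share this is below the 35.2% of all tested genes called in either direction. Those described here are Rfxap, Nfyb and Irf1. Rfxap, a subunit of the RFX complex on the X box, had 12.5 ± 1.73 CPM in EOD, 12.2 ± 1.0 CPM in IF16 and 9.43 ± 0.964 CPM in AL (log2 fold change 0.41 in EOD against AL, SE 0.11, adjusted p = 0.00931, edgeR). Nfyb, a subunit of NF-Y on the Y box, fell to 25.0 ± 2.51 CPM in EOD, against 31.2 ± 1.96 CPM in AL (log2 fold change -0.32, adjusted p = 0.00893, edgeR). In IF16 Nfyb had 25.5 ± 1.08 CPM, a log2 fold change of -0.29 against AL that did not pass (adjusted p = 0.0748, edgeR). The promoters shown above hold the letters that NF-Y binds, but a match is not a measured site. Irf1, which activates the Ciita gene under interferon gamma, had 13.93 to 20.44 CPM in EOD and 14.79 to 50.51 CPM in AL, a log2 fold change of -0.86 (adjusted p = 0.0265, edgeR), but without AL replicates 4 and 5 it was -0.23 (adjusted p = 0.407). The Irf1 call also ended without AL replicate 4 or 5 alone or without EOD replicate 1, 3 or 4 (adjusted p = 0.0565 to 0.0724).

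Among interferon gamma targets outside class II, 9 of 18 tested were lower and 0 higher in EOD than in AL, where 17.6% of all tested genes were lower. Their median log2 fold change was -0.55 (beside -0.01 over all tested genes). In the other comparisons, 0 were higher and 1 lower in IF16 than in AL (1.4% and 2.1% of all tested genes), and 1 was higher and 3 lower in EOD than in IF16 (7.96% and 8.15% of all tested genes). In EOD against AL, 5 passed without EOD replicate 1 or EOD replicate 3 and in limma with no minimum, and 6 without AL replicates 4 and 5. In IF16 against AL the count was 4 with the DESeq2 Wald test, 0 in limma with no minimum, 2 without IF16 replicate 1 or EOD replicate 5, and 0 without IF16 replicate 2, 3 or 5 or AL replicate 1 or 2. The difference between the class II genes and the other targets was not tested.

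Psmb9, a subunit of the immunoproteasome, fell to 12.5 ± 2.44 CPM in EOD, against 23.6 ± 4.71 CPM in IF16 and 32.6 ± 2.68 CPM in AL (log2 fold change -1.39 in EOD against AL, SE 0.15, adjusted p = 5.1e-06, edgeR). All EOD libraries of Psmb9, from 9.282 to 15.15 CPM, lay under all AL libraries, from 29.28 to 34.87 CPM. Psmb8, its partner subunit, fell by 0.81 on the log2 scale in EOD against AL (adjusted p = 0.000467, edgeR), and Tap1, the peptide transporter of the class I pathway, by 0.82 (adjusted p = 0.00207, edgeR). The guanylate-binding proteins Gbp7 and Gbp6, which act in defence against intracellular microbes, had log2 fold changes of -1.33 and -1.19 (adjusted p = 6.09e-05 and 0.00171, edgeR). Tap1 was also the target that passed in IF16 against AL, at 7.736 to 16.79 CPM in IF16 and 16.62 to 24.42 CPM in AL (log2 fold change -0.75, adjusted p = 0.0253, edgeR), a call that was lost when IF16 replicate 2, 3 or 5 or AL replicate 1 or 2 was left out (adjusted p = 0.0525 to 0.0716).

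The other 4 calls in EOD against AL were Igtp and Irgm1, interferon-induced GTPases, and the chemokines Cxcl9 and Cxcl10. Their log2 fold changes were -0.75, -0.38, -0.93 and -3.59 (adjusted p = 0.0224, 0.0359, 0.0345 and 0.0231, edgeR). Cxcl10 had 1.378 to 2.602 CPM in EOD and 1.416 to 96.63 CPM in AL, and without AL replicates 4 and 5 its log2 fold change was 0.25 (adjusted p = 0.599). Irgm1 and Cxcl9 also lost their calls without these libraries (adjusted p = 0.0581 and 0.15), and Igtp lost its call without AL replicate 1 or 2 or EOD replicate 1 or 3 (adjusted p = 0.0569 to 0.0675). The Irgm1 call also ended without AL replicate 1 or 2 or EOD replicate 1, 2, 3 or 4, the Cxcl9 call without AL replicate 1, 4 or 5 or EOD replicate 1, 2 or 3, and the Cxcl10 call without AL replicate 4 or EOD replicate 1, 2 or 3, at adjusted p of 0.0505 to 0.119.

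**Figure D4:**
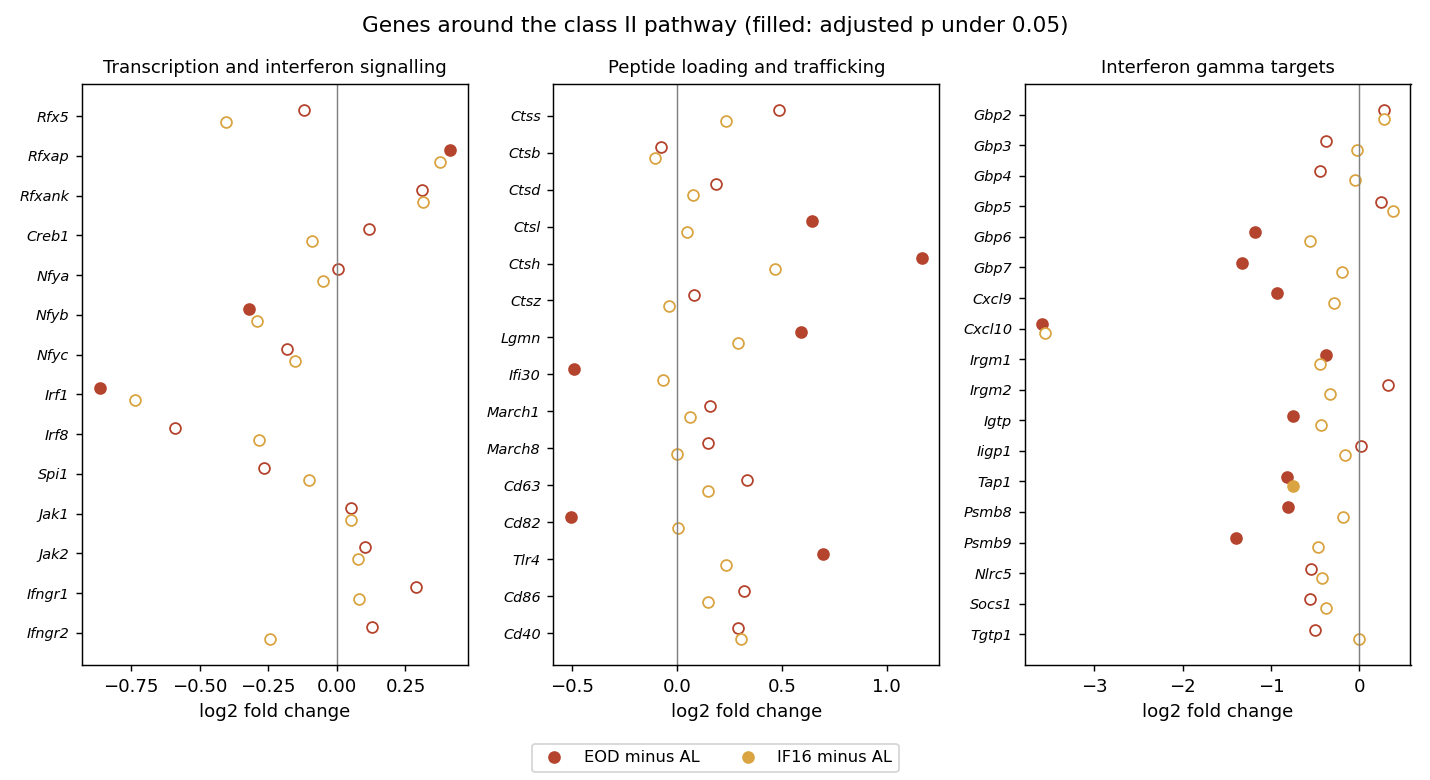
Log2 fold change of class II transcription factors and interferon signalling genes, peptide loading and trafficking genes, and interferon gamma targets, with EOD minus AL above IF16 minus AL in each row (5 libraries a group). Filled points passed an adjusted p under 0.05 in edgeR, and among the interferon gamma targets 9 of 18 are filled on the low side in EOD minus AL.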

How the data were processed

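The authors deposited raw counts per Ensembl gene with 1 column per library, and FPKM values that equal those counts scaled by gene length and library total in 100% of values at a relative tolerance of 1e-08. The submitters' processing notes list STAR 2.5, HTSeq 0.6.1, DESeq2 and the build mm10, with no role for each. Whether reads were counted by strand is not given, so overlapping and antisense genes may be mixed, and close paralogs may share reads.

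From the counts, R 4.3.3 with edgeR 4.0.16 kept genes by filterByExpr (minimum count 10), scaled libraries by TMM and fitted all 15 libraries in 1 quasi-likelihood model with a mean per group (glmQLFit, glmQLFTest). Adjusted p-values are Benjamini-Hochberg over 13837 genes at a threshold of 0.05, and n counts libraries. CPM are TMM-scaled, and log2 CPM use a prior count of 2. For the 30 pairs of libraries within groups, chi-square divided by its degrees of freedom was 23.1 to 201, so no library was counted as a copy of another. The scripts were tested on simulated data. Depth was 28129883 to 38147534 counts, and intervals cover 95%.

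The 6 genes and the gene lists were chosen with earlier results of these data known. The text names all 6 genes, each other pathway gene past the threshold in any comparison (1 gene that the counts include is not reported here), the interferon gamma targets past it in EOD or IF16 against AL, the defining genes of cell types, and the 4 genes most like each member. Ctss, Ctsb, Ctsd, Ctsz, the chain ratios and the motif CTNGCAAC were chosen after values or sequences had been seen. The alternatives were DESeq2 size factors, the DESeq2 1.42.0 Wald test, no low-count filter, at least 1 CPM in 5 libraries, a fit of only the 2 groups compared, a block for the replicate number, leaving out single libraries, leaving out AL replicates 4 and 5, and limma 3.58.1 on deposited FPKM after log2, with 1 or 0.1 added and a minimum mean of 0.5 or none.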

Additional observations from a re-analysis of the deposited data

Results flagged for a closer look

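H2-DMa in IF16 replicate 1 stood apart from the other IF16 libraries, at 5.137 CPM against 3.015 to 3.517 CPM. Of 27 combinations of a gene and a group that were looked at, this was the only 1 with a library so far from the rest, and chance alone flags about 1 in 20 groups of this size.

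For 7 pathway or interferon gamma target genes the effects of EOD and IF16, each set against AL, differed by the edgeR test of EOD against IF16. Of 33 tested pathway genes 2 were higher and 1 lower, and of 18 tested targets 1 was higher and 3 lower. Of all tested genes, 16.1% were called in this comparison. Ctsh had a log2 fold change of 0.70 in EOD minus IF16 (adjusted p = 0.00636) and Ctsl one of 0.60 (adjusted p = 0.00304). Irgm2, an interferon-induced GTPase, differed by 0.65 (adjusted p = 0.00705), with 25.2 ± 3.34 CPM in EOD and 16.0 ± 3.56 CPM in IF16 (SD, n = 5 each). Gbp7 differed by -1.13 (adjusted p = 0.000767), Psmb9 by -0.92 (adjusted p = 0.000703), Psmb8 by -0.63 (adjusted p = 0.00801) and Cd82 by -0.51 (adjusted p = 0.000944). None of the 6 class II genes showed such a difference in edgeR (0 at an unadjusted p under 0.05).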

How the results depend on the processing

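The count of class II genes called stayed at 0 of 6 in every comparison under every alternative run. In EOD against AL, the log2 fold change of H2-DMa turned to -0.0011 with the replicate number as a block, to -0.12 without AL replicates 4 and 5, and to -0.034 (plus 1, with or without the minimum) and -0.067 (plus 0.1) in limma. H2-Ab1 turned to -0.15 without AL replicates 4 and 5 and to -0.030 and -0.031 in limma, and Cxcl10 to 0.25 without those 2 libraries. In IF16 against AL without AL replicates 4 and 5, H2-Aa turned to -0.0011, H2-Ab1 to -0.034, H2-Eb1 to -0.11, Cd74 to -0.0069 and Ciita to -0.20. In EOD against IF16, H2-DMa turned to -0.00053 and -0.020 in limma. The cause was not tested. With each library left out, EOD against AL ran from -0.35 to 0.031 for H2-Aa, from -0.21 to 0.17 for H2-Ab1 and from -0.20 to 0.17 for H2-DMa. IF16 against AL ran from -0.041 to 0.18 for H2-Eb1, from -0.19 to 0.058 for H2-DMa, from -0.090 to 0.26 for Cd74 and from -0.090 to 0.47 for Ciita, and EOD against IF16 from -0.15 to 0.23 for H2-DMa. In IF16 against AL, 484 genes were called, 937 with the DESeq2 Wald test and 277 in limma with no minimum. With each library left out the count ran from 241 (without IF16 replicate 3; 269 and 254 without IF16 replicate 2 and 5) to 619. In EOD against AL it ran from 3913 to 5726, and in EOD against IF16 from 1418 (without IF16 replicate 5; 1460 without EOD replicate 1) to 3383 (without EOD replicate 5). Same-numbered libraries did not deviate together (15 pairs, r from -0.13 to 0.218, 5 over 0.1 and 3 libraries best with their own number), and the replicate block gave 4809, 492 and 2226 calls in EOD against AL, IF16 against AL and EOD against IF16. In EOD against AL, the calls of Tlr4, Irf1 and Cxcl9 ended with no low-count filter (adjusted p = 0.0544, 0.0607 and 0.0745, edgeR), those of Irgm1, Cxcl9 and Cxcl10 with the replicate block (0.0503, 0.0793 and 0.168), and those of Lgmn, Irf1, Igtp, Irgm1, Cxcl9 and Cxcl10 in limma with no minimum (0.0559 to 0.244). In limma with a minimum mean of 0.5, the calls of Irgm1 and Cxcl10 also ended. Their adjusted p were 0.0538 and 0.136 with 1 added, and 0.0532 and 0.148 with 0.1 added. The Cxcl10 call also ended in the fit of only EOD and AL (adjusted p = 0.0675, edgeR). Ciita had no value under the filters of 1 CPM and of a mean of 0.5 FPKM, and its 6 to 40 counts limit what could be seen.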
